A study of Mus musculus with 6 samples.

Results

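Ion channels and calcium handling genes of the heart were followed through 6 RNA-seq libraries of mouse heart tissue. The list holds 34 genes, given by symbol and matched by current or older symbol to the NCBI gene numbers of the deposited values, in which 17441 genes were listed in at least 1 library. The values are FPKM, fragment counts normalised for the length of the gene and for the total of the library. Genes that reached an FPKM of 1 in 2 or more libraries were tested, 33 of these 34 and 13120 in all. The remaining gene, *Sln*, encodes sarcolipin, a small inhibitor of the Ca2+ pump found mostly in atrial muscle, and it was listed in no library. *Fkbp1b* passed the minimum through infarct libraries alone.

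The tissue lay below the ligature of the left anterior descending coronary artery and was taken 3 days after surgery from male mice aged 12 weeks by the labels. The 3 groups were wild-type mice after a sham operation (WT sham), wild-type mice after myocardial infarction by ligation (WT MI), and *Card9* knockout mice after the same infarction (Card9 KO MI), with 2 libraries each. All strains were on a C57BL/6 background, and the part of *Card9* that was deleted is not given in the sources used here. No sham-operated knockout mice were analysed here, and the effects of genotype and infarction cannot be told apart between Card9 KO MI and WT sham. Nothing in the labels states that the 2 libraries of a group came from separate mice, and p-values measure only the spread between these libraries. In whole tissue, fewer cells of a type and less RNA per cell cannot be told apart.

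A heartbeat starts with an inward Na+ current, is held by Ca2+ entering through L-type channels, and ends with K+ leaving through several families of channels. The Ca2+ that enters opens the ryanodine receptor of the sarcoplasmic reticulum, an internal Ca2+ store, and the released Ca2+ starts contraction. A Ca2+ pump then returns Ca2+ to the store, and a Na+/Ca2+ exchanger moves the rest out of the cell. Gap junctions carry the electrical signal from cell to cell. Down-regulation of K+ channels and of the Ca2+ pump is a known feature of injured and failing ventricular muscle.

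*Card9*, the targeted gene, had an FPKM of 0.99 and 1.03 in the sham libraries, 3.39 and 5.08 in those of WT MI, and 9.85 and 6.94 in those of Card9 KO MI. It was not lower in the last group than in WT MI, from which it differed by 0.85 on the log2 scale (standard error 0.23, adjusted p = 0.11 by limma), so the group is named by its label and each direction against WT MI rests on that label. The depth was estimated from the steps between low FPKM values at 3025163 to 4305809 fragments per library. For a gene of 2 kb, 3 fragments then correspond to an FPKM between 0.348 and 0.496, which covers counting error only, and 32 of the 33 tested members lay above it in all 6 libraries, *Fkbp1b* being the exception. Cardiomyocyte structural genes (12 genes, among them *Myh6*, *Tnnt2* and the ventricular light chain *Myl2*) summed to an FPKM of 48277 and 49470 in the sham libraries, 30533 and 30939 in those of WT MI, and 25581 and 29493 in those of Card9 KO MI. Of 8 atrial markers, the light chain *Myl7* was below an FPKM of 1 in every library and *Bmp10* was listed in none. The 8 summed to an FPKM of 352 and 106 in the sham libraries, 776 and 861 in those of WT MI, and 1865 and 1684 in those of Card9 KO MI. Most of each sum was *Nppa*, which stressed ventricle also makes, so the sums are no measure of atrial tissue. Its values stand with those of *Gja5*. Of the 5 atrial markers that could be tested, 4 had a positive log2 fold change in WT MI against WT sham and 1 a negative one.

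Between WT MI and WT sham, 18 of the ion channel and calcium handling genes fell in the deposited values, of which 3 were still called lower when the libraries were scaled to cardiomyocyte structural genes. In a limma fit of all 3 groups on log2(FPKM + 1), 22 of the 33 tested members were called at an adjusted p below 0.05, against 37.1% of all tested genes. Of these, 18 were called lower, against 9.39% of all tested genes, and 4 higher, against 27.7%. The genes called lower were *Scn4b*, *Kcnj2*, *Kcnj3*, *Kcnj11*, *Abcc9*, *Kcnd2*, *Kcnip2*, *Hcn4*, *Cacna2d1*, *Ryr2*, *Casq1*, *Casq2*, *Trdn*, *Jph2*, *Hrc*, *Asph*, *Atp2a2* and *Pln*. Those called higher were *Kcnq1*, *Slc8a1*, *Gja5* and *Atp1b1*. The median log2 fold change was −0.45 over the members and 0.19 over all tested genes. In 22 members both WT MI libraries lay below both WT sham libraries, in 5 both lay above, and in 6 they overlapped, where 22.1% of all tested genes lay below and 48.3% above. With any of the 4 libraries compared left out, which leaves 1 library in a group, fewer members were called. Fewer of all tested genes were called in the same fits as well, so this loss is not particular to the members.

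Several cell-type markers moved with these genes in the same comparison. All 12 cardiomyocyte structural genes had lower values in both WT MI libraries than in both sham libraries, and 7 of them were called lower, with a median log2 fold change of −0.66. The summed FPKM of 12 macrophage markers was 423.8 and 364.6 in the sham libraries, 1461 and 1854 in those of WT MI, and 2945 and 2140 in those of Card9 KO MI, and 11 of them were called higher in WT MI. Of 8 fibroblast markers, 6 were called higher, and so were all 6 neutrophil markers that could be tested, of which 4 reached an FPKM of 1 in at most 1 sham library. Their part in the values of each channel gene was not tested. As one measure of it, the comparison was repeated with each library scaled to its mean level of the 12 cardiomyocyte structural genes, and the result stands after the single genes.

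**Figure D1:**
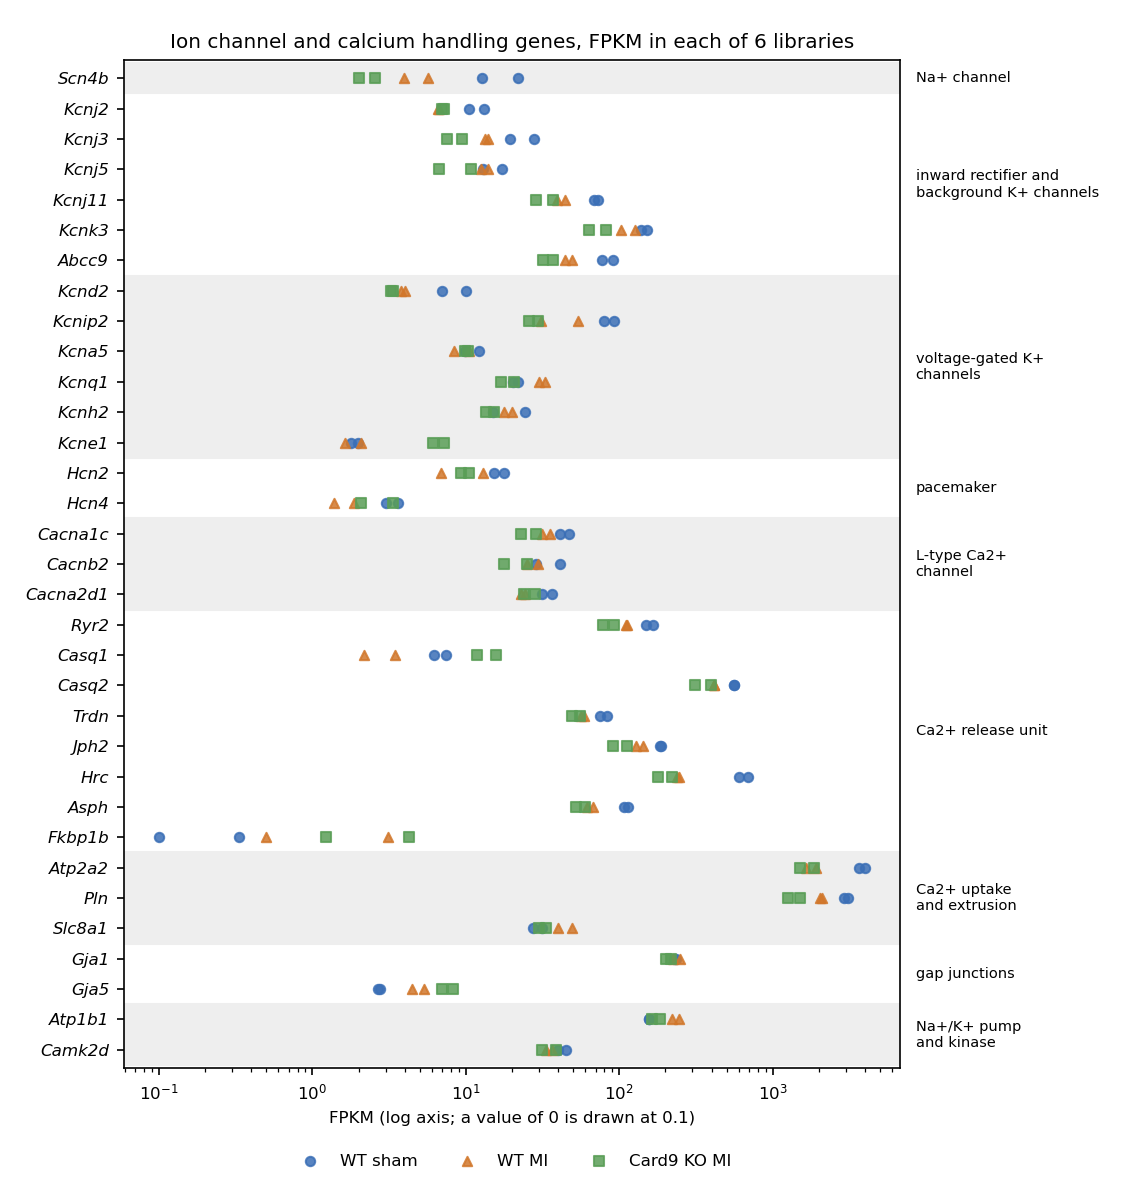
FPKM of the 33 tested members in each of the 6 libraries, on a log axis, ordered by role; circles are WT sham, triangles WT MI and squares Card9 KO MI, and a value of 0 (*Fkbp1b* in WT sham replicate 1) is drawn at 0.1. The levels ran from *Fkbp1b* near the detection limit to *Atp2a2* at 3979.05 in WT sham replicate 2, and in 22 members both triangles lie left of both circles.

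*Scn4b* encodes an auxiliary beta subunit of the voltage-gated Na+ channel (NCBI gene 399548; mm9 chromosome 9, 44946520 to 44962235, plus strand). Its FPKM was 21.85 and 12.71 in the sham libraries, 3.93 and 5.64 in those of WT MI, and 2.01 and 2.54 in those of Card9 KO MI. The 3 groups did not overlap, and each step was downward. The mean of WT MI was 27.7% of the sham mean, with a log2 fold change of −1.63 (standard error 0.27, adjusted p = 0.0027), the largest fall among the members in this comparison. Against WT MI, the libraries labelled Card9 KO MI had a log2 fold change of −0.81 that was not called (standard error 0.27, adjusted p = 0.15).

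Among the inward rectifier and background K+ channels, which hold the resting potential, 4 of 6 genes fell in WT MI and none rose, where 9.39% of all tested genes were called lower. None of the 4 was called when the libraries were scaled to cardiomyocyte structural genes (−0.20 to −0.10, adjusted p from 0.18 to 0.63). *Kcnj2* encodes the main pore of the classical inward rectifier current (mm9 chromosome 11, 110927478 to 110938135, plus strand). Its FPKM was 10.56 and 13.07 in the sham libraries, 6.58 and 6.71 in those of WT MI, and 7.16 and 6.99 in those of Card9 KO MI, so both infarct groups lay below WT sham (WT MI against WT sham, −0.74 on the log2 scale, standard error 0.15, adjusted p = 0.0066). *Kcnj11* and *Abcc9* encode the pore and the sulfonylurea receptor of the cardiac ATP-sensitive K+ channel, which opens when energy is short. *Kcnj11* had 68.41 and 72.49 in the sham libraries, 39.44 and 43.96 in those of WT MI, and 28.48 and 36.83 in those of Card9 KO MI (WT MI against WT sham, −0.74, standard error 0.14, adjusted p = 0.0045). *Abcc9* had 76.71 and 90.57 in the sham libraries, 44.51 and 49.18 in those of WT MI, and 31.66 and 36.82 in those of Card9 KO MI (−0.82, standard error 0.13, adjusted p = 0.0020). The pair kept to similar levels, with an *Abcc9* to *Kcnj11* ratio between 1.00 and 1.25 in all 6 libraries. *Kcnj8*, a related pore gene found in vascular smooth muscle, was called lower as well (−0.47, adjusted p = 0.044), in 8 of 17 alternatives.

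*Kcnj3* and *Kcnj5* encode the subunits of the acetylcholine-activated K+ channel. *Kcnj3* had an FPKM of 19.28 and 27.61 in the sham libraries, 14.04 and 13.23 in those of WT MI, and 7.5 and 9.41 in those of Card9 KO MI, with no overlap between groups (WT MI against WT sham, −0.72, standard error 0.19, adjusted p = 0.019). That call ended without WT sham replicate 2 (−0.47, adjusted p = 0.10) and without either WT MI library (adjusted p = 0.076 and 0.095). Its partner *Kcnj5* had 13.02 and 17.22 in WT sham and 14.00 and 12.60 in WT MI, which overlapped, and 6.70 and 10.82 in Card9 KO MI. *Kcnj5* was called in 1 comparison, as lower in Card9 KO MI than in WT sham (−0.74, adjusted p = 0.025), a call that ended without WT sham replicate 2 or without Card9 KO MI replicate 1 (adjusted p = 0.14 for each). *Kcnk3*, a background channel of the tandem-pore family, was the most abundant of these 6 genes (mm9 chromosome 5, 30890543 to 30927643, plus strand). It had 150.51 and 138.40 in the sham libraries, 126.60 and 102.28 in those of WT MI, and 63.88 and 82.24 in those of Card9 KO MI. No groups overlapped for *Kcnk3*, but neither step was called (WT MI against WT sham, −0.34, adjusted p = 0.11; Card9 KO MI against WT MI, −0.64, standard error 0.15, adjusted p = 0.084), while the whole distance from WT sham to Card9 KO MI was (−0.98, adjusted p = 0.0012).

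Among the voltage-gated K+ channels, which repolarise the membrane, 2 of 6 genes fell in WT MI and 1 rose, where 9.39% of all tested genes were called lower and 27.7% higher. With the cardiomyocyte scaling neither of the 2 was called, *Kcnd2* at −0.32 (adjusted p = 0.20) and *Kcnip2* at −0.43 (adjusted p = 0.092). *Kcnd2* encodes a pore of the fast transient outward current of mouse ventricle, and *Kcnip2* its accessory subunit. *Kcnd2* had an FPKM of 7 and 10.02 in the sham libraries, 3.76 and 4.03 in those of WT MI, and 3.33 and 3.26 in those of Card9 KO MI (WT MI against WT sham, −0.94, standard error 0.19, adjusted p = 0.0070). *Kcnip2* (mm9 chromosome 19, 45866329 to 45890551, minus strand) had 79.66 and 92.13 in the sham libraries, 31.01 and 53.88 in those of WT MI, and 25.82 and 29.56 in those of Card9 KO MI. Both genes were lower in every infarct library than in either sham library. *Kcnip2* fell to 49.4% of the sham mean in WT MI (−1.05, standard error 0.23, adjusted p = 0.0098), and this call ended without WT sham replicate 2 (−0.94, adjusted p = 0.060). The related pore gene *Kcnd3* had 4.57 and 5.24 in WT sham and 3.70 and 2.86 in WT MI, which was not called (−0.47, adjusted p = 0.11).

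*Kcna5*, an ultrarapid delayed rectifier gene, and *Kcnh2*, the pore of the rapid delayed rectifier, were called in no comparison of the deposited values. *Kcna5* had an FPKM of 9.86 and 12.11 in the sham libraries, 8.43 and 10.50 in those of WT MI, and 9.90 and 10.39 in those of Card9 KO MI, and *Kcnh2* ranged from 13.52 to 24.47 over the 6 libraries. *Kcnq1*, the pore of the slow delayed rectifier, went the other way from *Kcnd2* and *Kcnip2* in WT MI (mm9 chromosome 7, 150293159 to 150612955, plus strand). Its FPKM was 20.29 and 21.81 in the sham libraries, 32.78 and 30.15 in those of WT MI, and 17.03 and 20.65 in those of Card9 KO MI, so WT MI stood above both other groups. The gene rose in WT MI over WT sham (0.56, standard error 0.13, adjusted p = 0.011) and was called lower in Card9 KO MI than in WT MI (−0.72, standard error 0.13, adjusted p = 0.048). The second call ended with any of the 4 infarct libraries left out (adjusted p from 0.064 to 0.29) and held under 4 of 17 alternatives. The rise ended with quantile normalization (0.33, adjusted p = 0.094), without WT sham replicate 1 (adjusted p = 0.056) and without WT MI replicate 1 (adjusted p = 0.081). *Kcnq1ot1*, an antisense RNA transcribed from within *Kcnq1*, lay between 2.26 and 3.03 in all 6 libraries; whether the counting used strand is not given in the sources used here.

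*Kcne1* encodes the small subunit that slows the KCNQ1 channel (mm9 chromosome 16, 92346246 to 92359713, minus strand). It had an FPKM of 1.79 and 1.97 in the sham libraries, 1.64 and 2.08 in those of WT MI, and 7.17 and 6.10 in those of Card9 KO MI. WT sham and WT MI overlapped, and both libraries labelled Card9 KO MI stood well above them. The mean of Card9 KO MI was 3.57-fold that of WT MI, or 1.42 on the log2 scale (standard error 0.19, adjusted p = 0.021), and the difference from WT sham was of like size (1.40, adjusted p = 6.5e-04). The call against WT MI ended with any of the 4 infarct libraries left out (adjusted p from 0.064 to 0.18). Set against its channel, the *Kcne1* to *Kcnq1* ratio was 0.0882 and 0.0903 for WT sham, 0.050 and 0.069 for WT MI, and 0.421 and 0.295 for Card9 KO MI, a ratio chosen after its values were seen. *Kcne4*, another small subunit gene, had 0.51 and 0.53 in the sham libraries, 2.77 and 4.69 in those of WT MI, and 3.35 and 3.30 in those of Card9 KO MI, and passed the minimum through infarct libraries alone, so no test against WT sham is given. The infarct groups were not called apart (−0.10, adjusted p = 0.86). The smooth muscle and pericyte markers summed to 219 and 253 in the sham libraries, 309 and 288 in those of WT MI, and 556 and 536 in those of Card9 KO MI. These sums were highest in Card9 KO MI, and those of WT MI lay above those of WT sham. Of these 9 genes, *Acta2* and *Tagln* were called higher in Card9 KO MI than in WT MI, in 9 and 15 of 17 alternatives. *Rgs5* and *Kcnj8* were called lower in both infarct groups than in WT sham. The part of these markers in the value of *Kcne1* was not tested.

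**Figure D2:**
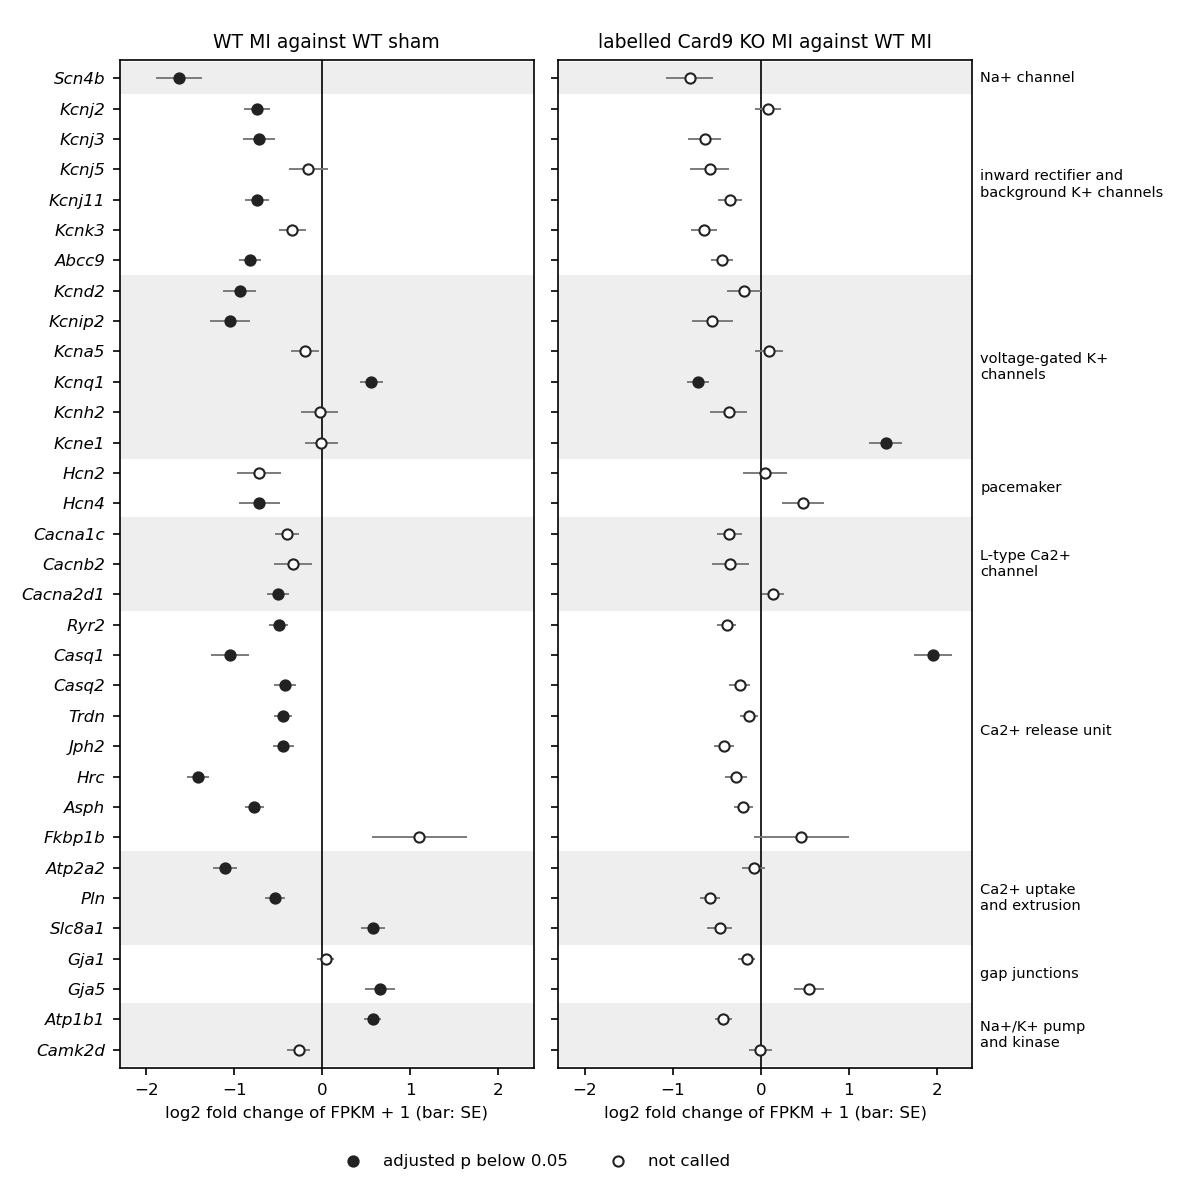
Log2 fold change of FPKM + 1 for the 33 tested members, WT MI against WT sham on the left and Card9 KO MI against WT MI on the right; bars are standard errors and filled points have an adjusted p below 0.05 by limma. On the left, in the deposited values, 18 filled points lie below 0 and 4 above, and on the right the filled points are *Kcne1* and *Casq1* above 0 and *Kcnq1* below.

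The pacemaker channel genes *Hcn2* and *Hcn4* encode cation channels that open on hyperpolarisation, and *Hcn4* marks the sinus node. *Hcn4* had an FPKM of 3.63 and 3.01 in the sham libraries, 1.87 and 1.39 in those of WT MI, and 2.06 and 3.35 in those of Card9 KO MI. WT MI lay below WT sham (−0.72, standard error 0.23, adjusted p = 0.046), while Card9 KO MI overlapped with WT sham. The call ended with any of the 4 libraries compared left out (adjusted p from 0.088 to 0.19), without the filter on low values (adjusted p = 0.081) and with the replicate number as a block (adjusted p = 0.067). *Hcn2*, the more abundant of the pair, had 17.60 and 15.18 in the sham libraries, 6.92 and 12.97 in those of WT MI, and 10.55 and 9.26 in those of Card9 KO MI. The infarct libraries of *Hcn2* all lay below WT sham, but the 2 WT MI libraries stood far apart and no comparison was called (WT MI against WT sham, −0.72, standard error 0.25, adjusted p = 0.055). Of 8 conduction system markers, *Isl1* and *Shox2* were below an FPKM of 1 in every library. The other 6 were tested, and 3 had a positive and 3 a negative log2 fold change in WT MI against WT sham. The same numbers held in Card9 KO MI against WT sham, where *Tbx3* was called lower, in 12 of 16 alternatives. *Tbx18*, called higher in both infarct groups, reached an FPKM of 1 in only 1 sham library. Their part in the value of *Hcn4* was not tested.

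The 3 genes of the L-type Ca2+ channel had lower means after infarction, and 1 of them, *Cacna2d1*, was called lower in WT MI, where 9.39% of all tested genes were. Under the cardiomyocyte scaling all 3 changed sign in WT MI against WT sham without a call (0.11 to 0.28, adjusted p from 0.18 to 0.47 by limma). *Cacna1c*, the pore, had an FPKM of 41.30 and 47.26 in the sham libraries, 35.13 and 31.22 in those of WT MI, and 22.88 and 28.67 in those of Card9 KO MI (mm9 chromosome 6, 118542314 to 119146249, minus strand). Its groups did not overlap, with a log2 fold change of −0.41 in WT MI (standard error 0.14, adjusted p = 0.054) and a call between Card9 KO MI and WT sham (−0.76, adjusted p = 0.0030). *Cacna2d1*, the alpha2delta subunit that carries the channel to the membrane, fell from 31.34 and 36.43 to 24.30 and 22.76 in WT MI and had 23.80 and 28.38 in Card9 KO MI (WT MI against WT sham, −0.50, standard error 0.13, adjusted p = 0.018). That call ended without WT sham replicate 2 (adjusted p = 0.10) and without either WT MI library (adjusted p = 0.067 and 0.099). *Cacnb2*, the beta subunit, had 28.78 and 41.31, 29.57 and 24.93, and 17.82 and 25.11 in the same order of groups, with an overlap of WT MI and WT sham (−0.33, adjusted p = 0.25).

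The Ca2+ release unit sits where the surface membrane meets the sarcoplasmic reticulum, and 7 of its 8 genes fell in WT MI, where 9.39% of all tested genes were called lower. With the libraries scaled to cardiomyocyte structural genes, *Hrc* alone of the 7 was still called. *Ryr2*, *Casq2*, *Trdn* and *Jph2* changed sign without a call, and *Casq1* (−0.43, adjusted p = 0.094) and *Asph* (−0.16, adjusted p = 0.25) lost theirs. *Hrc* encodes the histidine-rich Ca2+-binding protein of the store (NCBI gene 15464; mm9 chromosome 7, 52590660 to 52594343, plus strand). Its FPKM was 600.77 and 690.65 in the sham libraries, 238.30 and 244.30 in those of WT MI, and 178.74 and 219.62 in those of Card9 KO MI. Both infarct groups were far below WT sham, and WT MI had 37.4% of the sham mean (log2 fold change −1.41, standard error 0.12, adjusted p = 1.6e-04). *Casq2*, cardiac calsequestrin and the main Ca2+ buffer of the store, had 555.74 and 560.71 in the sham libraries, 414.80 and 415.73 in those of WT MI, and 310.83 and 397.56 in those of Card9 KO MI (mm9 chromosome 3, 101890338 to 101950437, plus strand). Its fall was smaller (−0.43, standard error 0.12, adjusted p = 0.027), so the *Hrc* to *Casq2* ratio went from 1.08 and 1.23 in WT sham to 0.574 and 0.588 in WT MI, and was 0.575 and 0.552 in Card9 KO MI. *Hrc* thus exceeded *Casq2* in both sham libraries and lay below it in all 4 infarct libraries. The call of *Casq2* ended with any of the 4 libraries left out (adjusted p from 0.094 to 0.12), without the filter (adjusted p = 0.059) and without the variance trend (adjusted p = 0.073).

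*Casq1*, the skeletal muscle calsequestrin and a paralog of *Casq2*, behaved differently (NCBI gene 12372; mm9 chromosome 1, 174140025 to 174150026, minus strand). It had an FPKM of 7.44 and 6.17 in the sham libraries, 3.44 and 2.17 in those of WT MI, and 11.80 and 15.65 in those of Card9 KO MI. All 3 groups were apart, with WT MI lowest and Card9 KO MI highest. *Casq1* fell in WT MI (−1.05, standard error 0.22, adjusted p = 0.0076) and was 4.89-fold higher in Card9 KO MI than in WT MI by the means (1.96, standard error 0.22, adjusted p = 0.014), the largest difference between the infarct groups among the members, although that call ended with any of the 4 infarct libraries left out (adjusted p from 0.054 to 0.068). It was also called higher in Card9 KO MI than in WT sham (0.91, adjusted p = 0.010), a call that ended without WT sham replicate 2 (adjusted p = 0.059), without Card9 KO MI replicate 2 (adjusted p = 0.069) and with quantile normalization (adjusted p = 0.068). The *Casq1* to *Casq2* ratio was 0.0134 and 0.0110 for WT sham, 0.00829 and 0.00522 for WT MI, and 0.0380 and 0.0394 for Card9 KO MI, a ratio also chosen after its values were seen. The skeletal muscle markers were looked at beside it. *Myh2*, *Myh4*, *Actn3*, *Pvalb* and *Myog* were below an FPKM of 1 in every library and *Myh1* was listed in none, while the fast troponins *Tnnt3* (0.94 and 0, 3.69 and 4.40, 9.26 and 7.92 in the 3 groups) and *Tnni2* (0.49 and 1.03, 2.69 and 2.38, 5.43 and 3.39) had higher values in all 4 infarct libraries than in both sham libraries, having passed the minimum through infarct libraries with at most 1 sham library at an FPKM of 1. The summed FPKM of the 10 markers was 3.80 and 4.64 in the sham libraries, 9.27 and 7.98 in those of WT MI, and 16.31 and 12.98 in those of Card9 KO MI. *Cacna1s*, the skeletal L-type pore, passed the minimum through sham libraries alone, at 2.32 and 3.16, and lay between 0.5 and 0.85 in the infarct libraries.

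**Figure D3:**
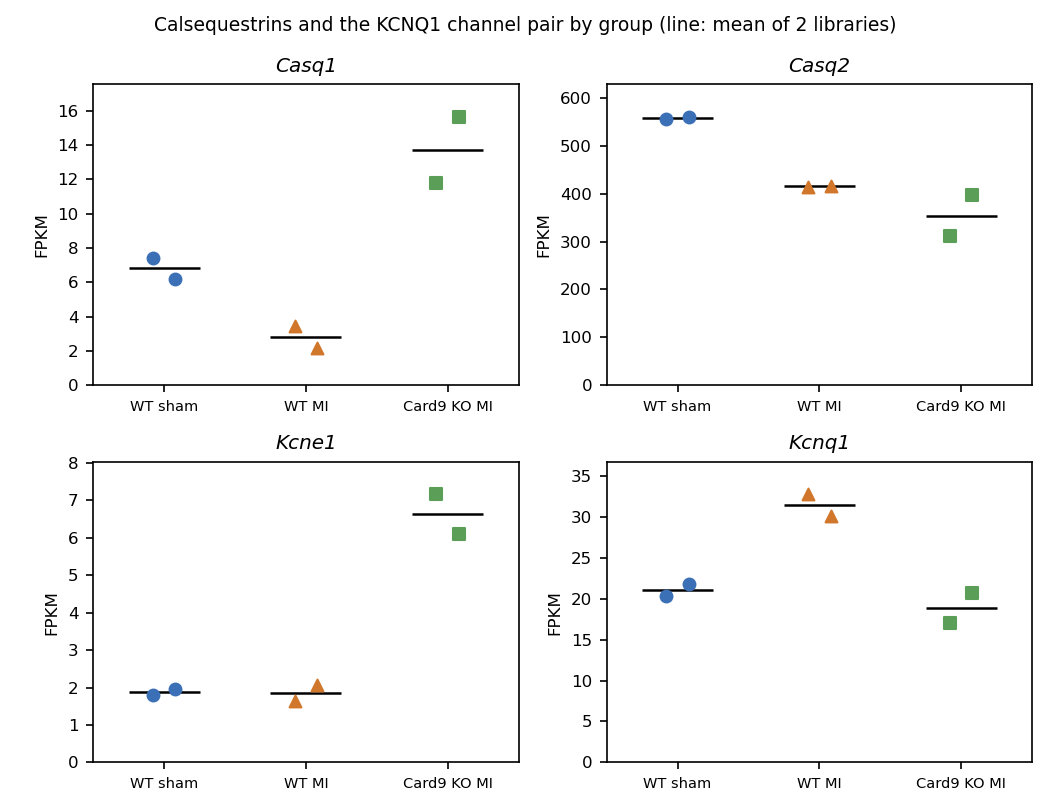
FPKM of *Casq1*, *Casq2*, *Kcne1* and *Kcnq1* by group, with each library as a point and the mean of 2 libraries as a line; every vertical axis starts at 0. *Casq1* and *Kcne1* are highest in Card9 KO MI, whereas *Casq2* is highest in WT sham and *Kcnq1* in WT MI.

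The promoter windows of the 2 calsequestrins and of *Hrc* are shown because all 3 genes fell in WT MI, while in Card9 KO MI *Casq1* was above and the other two were below their sham values. They are RefSeq windows of GRCm38.p6, a later build than the mm9 of the FPKM values, running from 250 bases before the annotated start to 50 after it, written 5′ to 3′ on the strand of the gene. Windows were found for 26 of the 34 members (30 windows). Capitals mark a match, on either strand, to any of 5 motifs searched in all 32851 promoter windows of the same length. The GC box, spelled GGGCGG, was found in 21 of the 30 member windows and in 35.7% of all windows. The motif bound by GATA factors, spelled AGATAA, was found in 3 of the member windows (*Pln*, *Gja1* and *Slc8a1*) and in 11.2% of all windows. The motif bound by TEAD factors, spelled CATTCC, was found in 3 (*Kcna5*, *Abcc9* and *Scn4b*) and in 14.7%. The core promoter element spelled TATAAA was found in 1 (*Pln*) and in 13.6%. The MEF2 motif, given by name, was found in 2 (*Casq2* and *Abcc9*) and in 3.19%. The *Casq2* window is chr3:102086165-102086464 on the plus strand, that of *Casq1* chr1:172219846-172220145 on the minus strand, and that of *Hrc* chr7:45335019-45335318 on the plus strand.
Casq2: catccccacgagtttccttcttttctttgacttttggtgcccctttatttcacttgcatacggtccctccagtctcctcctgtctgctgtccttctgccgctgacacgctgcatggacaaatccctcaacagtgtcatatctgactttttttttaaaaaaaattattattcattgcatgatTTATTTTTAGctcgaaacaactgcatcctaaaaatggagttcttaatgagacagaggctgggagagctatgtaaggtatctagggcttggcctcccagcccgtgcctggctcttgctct
Casq1: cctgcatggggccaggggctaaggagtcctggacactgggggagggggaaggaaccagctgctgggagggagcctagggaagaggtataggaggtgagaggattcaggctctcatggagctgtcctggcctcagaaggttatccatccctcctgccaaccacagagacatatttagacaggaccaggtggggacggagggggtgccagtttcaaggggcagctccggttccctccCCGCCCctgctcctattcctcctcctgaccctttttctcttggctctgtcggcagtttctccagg
Hrc: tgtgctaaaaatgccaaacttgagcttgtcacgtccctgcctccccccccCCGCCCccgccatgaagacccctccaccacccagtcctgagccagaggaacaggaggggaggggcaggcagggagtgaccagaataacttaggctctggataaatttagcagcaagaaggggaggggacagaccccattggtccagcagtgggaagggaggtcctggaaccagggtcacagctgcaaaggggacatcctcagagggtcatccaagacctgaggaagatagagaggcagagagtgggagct
The *Casq2* window held 1 MEF2 match, beginning 69 bases before the start. The *Casq1* and *Hrc* windows each held 1 GC box on the reverse strand, 15 and 200 bases before the start. These are matches of letters and not sites of binding.

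*Ryr2*, *Asph*, *Trdn* and *Jph2* of the release unit also fell in WT MI. *Ryr2*, the ryanodine receptor through which the store releases Ca2+, had an FPKM of 149.81 and 165.27 in the sham libraries, 112.90 and 110.04 in those of WT MI, and 78.30 and 92.55 in those of Card9 KO MI (mm9 chromosome 13, 11645370 to 12199212, minus strand; WT MI against WT sham, −0.49, standard error 0.11, adjusted p = 0.0099). *Asph*, whose products include junctin, which anchors calsequestrin to the receptor, had 114.47 and 107.04, 67.45 and 61.33, and 52.29 and 59.73 in the same order (−0.77, standard error 0.11, adjusted p = 0.0012). *Trdn*, triadin, the other anchor, had 83.45 and 74.82, 56.36 and 58.91, and 49.43 and 55.75 (−0.45, adjusted p = 0.013). *Jph2*, junctophilin, which ties the store to the surface membrane, had 184.25 and 185.84, 142.55 and 129.31, and 91.16 and 112.22 (−0.44, adjusted p = 0.020). In these 4 genes both WT MI libraries lay below both WT sham libraries, and both libraries labelled Card9 KO MI lay below both WT MI libraries. The difference between the infarct groups was called for none of them (log2 fold changes from −0.42 for *Jph2* to −0.13 for *Trdn*, adjusted p from 0.11 to 0.54). With single libraries left out, the calls against WT sham ended for *Ryr2* without WT sham replicate 2 or either WT MI library (adjusted p from 0.055 to 0.065), for *Trdn* without WT sham replicate 1 or either WT MI library (adjusted p from 0.054 to 0.084), and for *Jph2* without any of the 4 (adjusted p from 0.058 to 0.12). *Asph* was called in each of these.

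*Fkbp1b* encodes the calstabin bound to the cardiac ryanodine receptor, and it was near the detection limit. It had an FPKM of 0 and 0.33 in the sham libraries, 0.50 and 3.09 in those of WT MI, and 4.23 and 1.22 in those of Card9 KO MI, with the pairs of infarct libraries far apart. The log2 fold change from WT sham to Card9 KO MI was 1.56 (standard error 0.54), and 0.94 without Card9 KO MI replicate 1. *Fkbp1b* had passed the minimum through infarct libraries alone, so no test against WT sham is given. Its close relative *Fkbp1a*, outside the list, was abundant, at 137.59 and 126.73 in the sham libraries, 240.05 and 234.23 in those of WT MI, and 250.60 and 236.86 in those of Card9 KO MI, and it rose in WT MI (0.84, standard error 0.09, adjusted p = 3.7e-04).

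*Atp2a2*, the Ca2+ pump of the sarcoplasmic reticulum, and *Pln*, phospholamban, which inhibits it, had the 2 highest levels in every group. *Atp2a2* (NCBI gene 11938; mm9 chromosome 5, 122903531 to 122952183, minus strand) was present at an FPKM of 3669.55 and 3979.05 in the sham libraries, 1636.71 and 1919.40 in those of WT MI, and 1502.25 and 1865.41 in those of Card9 KO MI. The infarct groups overlapped with each other, far below WT sham. The mean of WT MI was 46.5% of that of WT sham (−1.11, standard error 0.14, adjusted p = 7.2e-04). *Pln* (mm9 chromosome 10, 53057492 to 53065805, plus strand) had 2897.58 and 3088.70 in the sham libraries, 2026.74 and 2083.81 in those of WT MI, and 1248.77 and 1510.00 in those of Card9 KO MI. All 3 groups were apart, and *Pln* fell in WT MI (−0.54, standard error 0.11, adjusted p = 0.0082). This call ended with the cardiomyocyte scaling, where the sign changed (0.08, adjusted p = 0.42), with quantile normalization (−0.17, adjusted p = 0.34), without WT sham replicate 2 and without either WT MI library (adjusted p from 0.055 to 0.072). Between the infarct groups its log2 fold change of −0.58 (standard error 0.11, adjusted p = 0.058) was not called.

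Because both are per length, the levels of inhibitor and pump can be set side by side within a library. The *Pln* to *Atp2a2* ratio was 0.790 and 0.776 in the sham libraries, 1.24 and 1.09 in those of WT MI, and 0.831 and 0.809 in those of Card9 KO MI. WT MI was thus the group in which *Pln* exceeded *Atp2a2*, and the libraries labelled Card9 KO MI lay between, close to WT sham. No test was run on this ratio, which has 2 values per group. A ratio within a library is not moved by the scaling of the libraries.

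*Slc8a1*, the Na+/Ca2+ exchanger that removes Ca2+ across the surface membrane, rose while the pump fell. It had an FPKM of 27.39 and 31.39 in the sham libraries, 49.16 and 39.63 in those of WT MI, and 29.81 and 33.54 in those of Card9 KO MI (mm9 chromosome 17, 81785359 to 82048947, minus strand). WT MI stood above WT sham (0.57, standard error 0.14, adjusted p = 0.014), and Card9 KO MI overlapped with WT sham and lay below WT MI without a call (−0.47, adjusted p = 0.13). The rise ended with quantile normalization (adjusted p = 0.074), without WT sham replicate 1 (adjusted p = 0.075) and without WT MI replicate 1 (adjusted p = 0.10). The *Slc8a1* to *Atp2a2* ratio, chosen after its values were seen, was 0.00746 and 0.00789 in the sham libraries, 0.0300 and 0.0206 in those of WT MI, and 0.0198 and 0.0180 in those of Card9 KO MI.

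**Figure D4:**
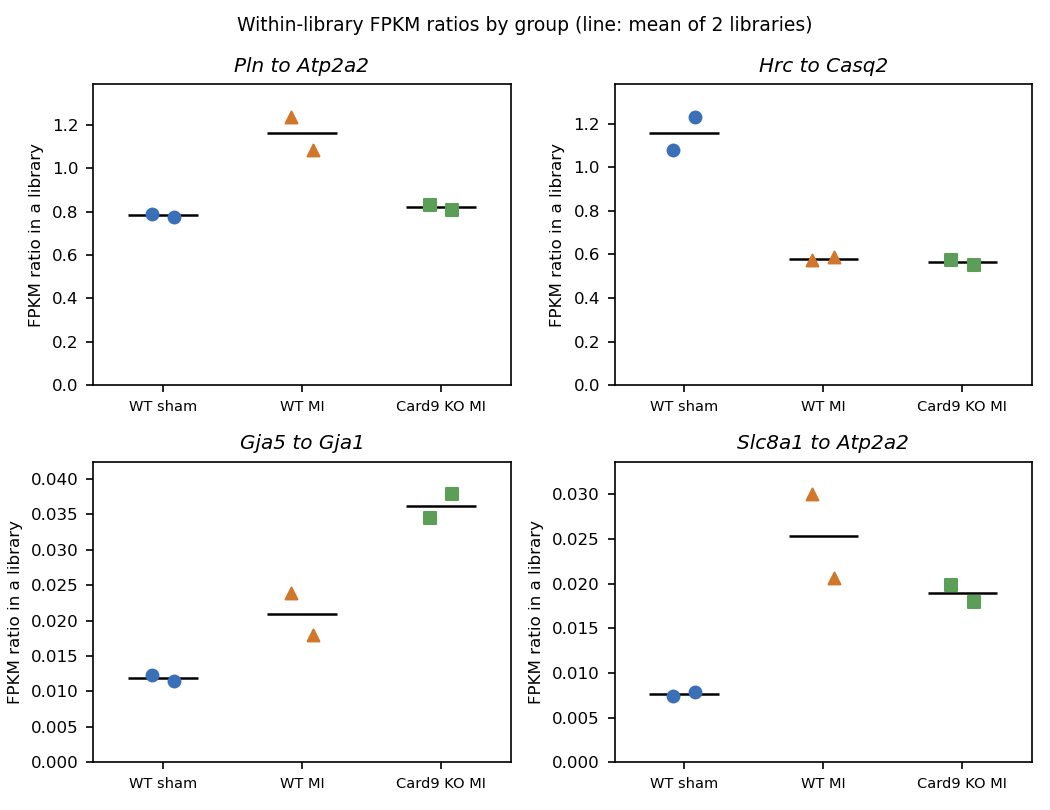
Ratios of FPKM within each library for *Pln* to *Atp2a2*, *Hrc* to *Casq2*, *Gja5* to *Gja1* and *Slc8a1* to *Atp2a2*, with a point per library and a line at the mean of 2; axes start at 0. The *Pln* to *Atp2a2* ratio is above 1 in WT MI alone, and the *Hrc* to *Casq2* ratio is above 1 in WT sham alone.

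Of the 2 connexin genes, 1 was called higher in WT MI in the deposited values, where 27.7% of all tested genes were. *Gja1*, connexin 43, the main gap junction protein of working ventricular muscle, had an FPKM of 225.81 and 232.70 in the sham libraries, 222.64 and 248.09 in those of WT MI, and 201.74 and 218.76 in those of Card9 KO MI (mm9 chromosome 10, 56097106 to 56110225, plus strand). It was called in no comparison of the deposited values (WT MI against WT sham, 0.04, standard error 0.09, adjusted p = 0.80). *Gja5*, connexin 40, found in atria, the conduction system and arterial endothelium, had 2.77 and 2.68 in the sham libraries, 5.33 and 4.45 in those of WT MI, and 6.96 and 8.28 in those of Card9 KO MI. Its groups did not overlap and each step was upward. The rise in WT MI was called (0.66, standard error 0.17, adjusted p = 0.018), and so was the one from WT sham to Card9 KO MI (1.21, adjusted p = 8.4e-04), but not the step between the infarct groups (0.55, adjusted p = 0.14). The call in WT MI ended with quantile normalization (0.32, adjusted p = 0.19), without either WT sham library (adjusted p = 0.054 and 0.067) and without WT MI replicate 1 (adjusted p = 0.11). The *Gja5* model of mm9 overlaps that of *Gpr89*. *Gja4*, connexin 37 of arterial endothelium, was called higher after infarction in WT too (0.73), in 13 of 17 alternatives. The 9 endothelial markers summed to 378 and 367 in the sham libraries, 389 and 387 in those of WT MI, and 456 and 443 in those of Card9 KO MI, and *Nppa*, an atrial marker also made by stressed ventricle, had 325.62 and 78.20, 757.55 and 838.11, and 1841.23 and 1660.66. Their part in the value of *Gja5* was not tested.

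*Atp1b1*, the beta subunit of the Na+/K+ pump, rose in WT MI and was called under every alternative tried. It had an FPKM of 156.90 and 156.05 in the sham libraries, 244.89 and 222.12 in those of WT MI, and 163.43 and 183.10 in those of Card9 KO MI (mm9 chromosome 1, 166367398 to 166388486, minus strand). WT MI stood above both other groups (against WT sham, 0.57, standard error 0.10, adjusted p = 0.0032), and Card9 KO MI had a lower value than WT MI that was not called (−0.43, standard error 0.10, adjusted p = 0.079). The pump regulator *Fxyd5*, outside the list, rose from 38.82 and 16.53 to 200.99 and 174.52 (2.83, adjusted p = 5.5e-04). *Camk2d*, the main cardiac isoform of Ca2+/calmodulin-dependent kinase II, had 44.86 and 39.90 in the sham libraries, 36.52 and 33.37 in those of WT MI, and 31.13 and 38.75 in those of Card9 KO MI, and was called in no comparison of the deposited values (WT MI against WT sham, −0.27, adjusted p = 0.15). Its low-abundance relative *Camk2b* fell from 5.30 and 5.54 to 2.19 and 1.94 (−1.07, adjusted p = 0.0065).

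Scaled to the mean level of the 12 cardiomyocyte structural genes, most of the falls in WT MI were no longer called. Of the 18 members called lower in the values as deposited, 3 stayed lower, *Scn4b* (−1.01, adjusted p = 0.0066), *Hrc* (−0.79) and *Atp2a2* (−0.49), and the other 15 were not called. Under this scaling 1.08% of all tested genes were called lower and 73.1% higher. The median log2 fold change was 0.17 over the members and 0.80 over all tested genes. The scaling moves all genes of a library alike, low ones included, so the distance between these 2 medians is that of the deposited values and no second result. Of the 15, *Cacna2d1*, *Ryr2*, *Casq2*, *Trdn*, *Jph2* and *Pln* changed sign, with uncalled values between 0.08 and 0.19. All 4 members that rose in the deposited values were higher here too, and *Kcnh2*, *Kcne1*, *Fkbp1b*, *Gja1* and *Camk2d* joined them. *Fkbp1b*, which passed the minimum through infarct libraries alone, is counted as a description. For *Fkbp1b* and *Kcne1*, both low, the shift is larger than a scaling of the FPKM would give. Single structural genes had log2 fold changes from −1.24 (*Myl2*) to −0.15 (*Actn2*) in the deposited values, a range that holds the −1.11 of *Atp2a2*.

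**Figure D5:**
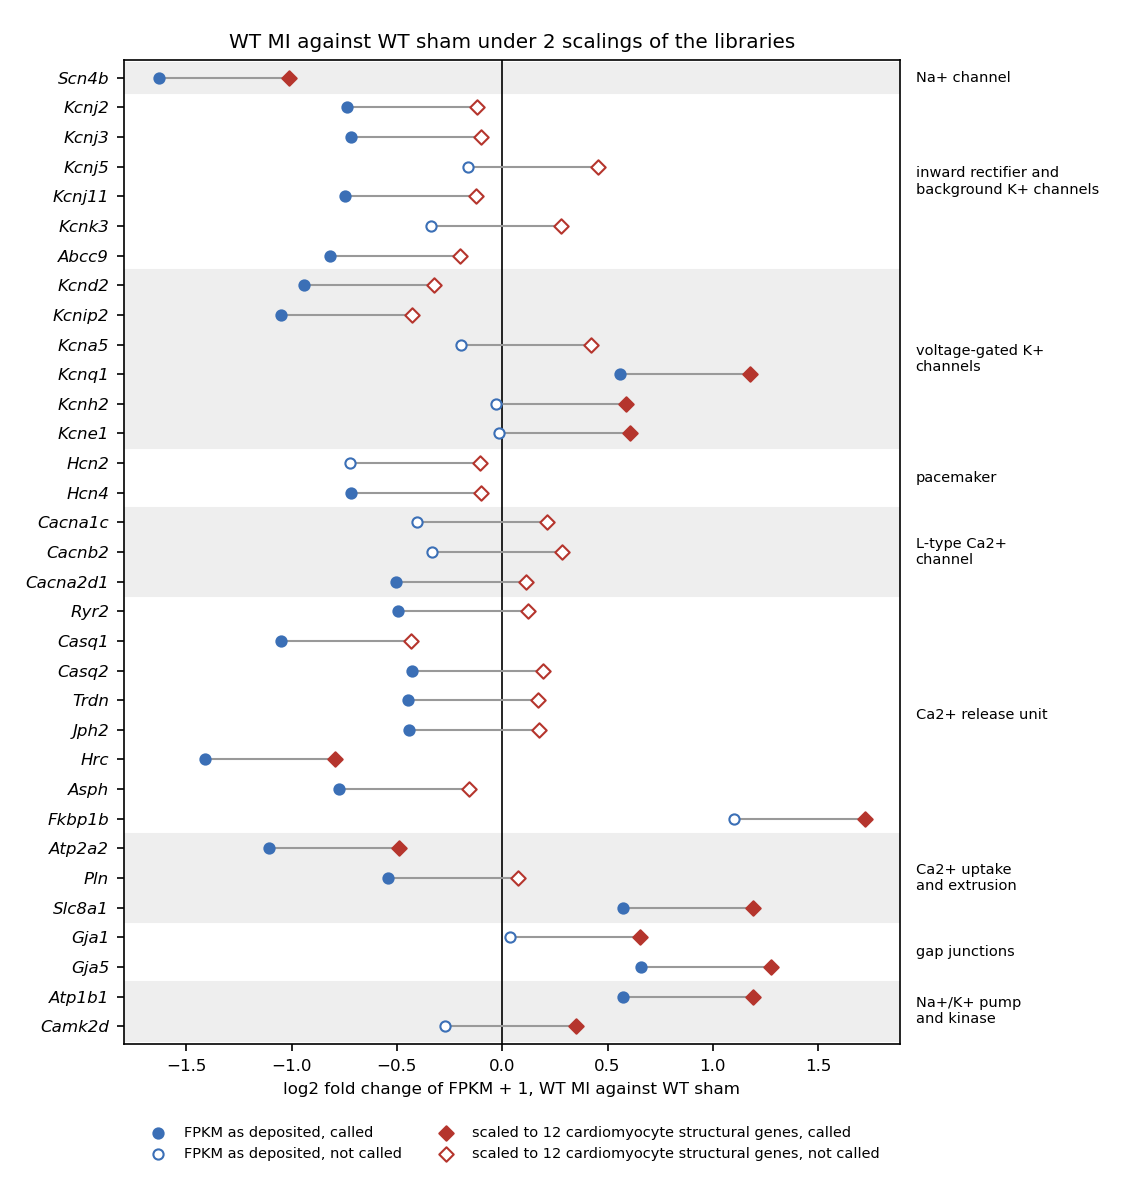
Log2 fold change of FPKM + 1 in WT MI against WT sham for the 33 tested members, from the deposited FPKM (circles) and after scaling each library to 12 cardiomyocyte structural genes (diamonds); filled points have an adjusted p below 0.05. *Scn4b*, *Hrc* and *Atp2a2* keep filled points below 0 on both scales, and 9 diamonds above 0 are filled.

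When the libraries labelled Card9 KO MI were set against WT MI, 3 of the 33 members were called, where 1.4% of all tested genes were. *Casq1* and *Kcne1* were higher, where 0.816% of all tested genes were called higher, and *Kcnq1* was lower, where 0.587% were called lower. The median log2 fold change was −0.28 over the members and 0.04 over all tested genes, and in 21 members both Card9 KO MI libraries lay below both WT MI libraries, where 21.9% of all tested genes did. In 5 members (*Kcnj2*, *Kcne1*, *Hcn4*, *Casq1* and *Gja5*) they lay above, where 30.8% did. Cell-type markers moved in this comparison too. The summed FPKM of 8 fibroblast markers was 3188 and 3059 for Card9 KO MI against 1479 and 2003 for WT MI, and 3 of the 8 were called higher (median log2 fold change 0.65). The 12 macrophage markers had a median of 0.66 and the 6 tested neutrophil markers one of −0.61. By limma none of either list was called, 7 and 2 having an unadjusted p under 0.05, and in all 6 neutrophil markers the libraries labelled Card9 KO MI both lay below those of WT MI. Their part in the members' values was not tested. The 3 calls ended with any of the 4 infarct libraries left out, which leaves 1 library in a group. Calls over all tested genes fell in the same fits, so this loss is not particular to the members. Without the filter on low values, limma tested 17441 genes and called 7 higher and 5 lower. No member was among them (adjusted p of 0.079, 0.079 and 0.10), with 15 members at an unadjusted p under 0.05. The libraries labelled Card9 KO MI differed between themselves as well. Replicate 2 had the higher value in 28 of the 33 members, and the cardiomyocyte structural genes summed to 25581 in replicate 1 and 29493 in replicate 2. Scaled to these genes, *Casq1* and *Kcne1* were still called higher, where 3.3% of all tested genes were, and *Pln* was called lower (−0.38, adjusted p = 0.043), where 0.427% were, while *Kcnq1* was not called (−0.51, adjusted p = 0.069).

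Set against WT sham, the libraries labelled Card9 KO MI had 24 of the 33 members called, where 49.1% of all tested genes were. Of these, 20 were lower, where 14.3% of all tested genes were, and 4 were higher (*Kcne1*, *Casq1*, *Fkbp1b* and *Gja5*), where 34.8% were. *Fkbp1b*, which passed the minimum through infarct libraries alone, is counted here and under the scaling below as a description. Both Card9 KO MI libraries lay below both sham libraries in 23 members, where 24.5% of all tested genes did, and above in 5, where 51.6% did. The lower genes included *Scn4b* (−2.44, adjusted p = 2.6e-04), *Hrc* (−1.70, adjusted p = 4.1e-05), *Kcnip2* (−1.60, adjusted p = 9.5e-04) and *Kcnj3* (−1.36, adjusted p = 7.7e-04), and all 6 inward rectifier and background K+ channels and all 3 L-type Ca2+ channel genes. Scaled to the cardiomyocyte structural genes, 2 of these 6 were still lower (*Kcnj3* and *Abcc9*), while the L-type genes changed sign, to 0.06 for *Cacna1c* and 0.14 for *Cacnb2* without a call and to 0.46 with a call as higher for *Cacna2d1* (adjusted p = 0.011). For *Cacnb2* and *Cacna2d1* the call ended without WT sham replicate 2 (adjusted p = 0.17 and 0.22) and without Card9 KO MI replicate 1 (adjusted p = 0.18 and 0.24). *Kcnq1*, *Slc8a1* and *Atp1b1*, which stood above WT sham in WT MI, were not called here, at −0.16, 0.11 and 0.14. This comparison shares the WT sham libraries with the one of WT MI and cannot separate genotype from infarction. After scaling to the cardiomyocyte structural genes 7 members were lower (*Scn4b*, *Kcnj3*, *Abcc9*, *Kcnip2*, *Hrc*, *Atp2a2* and *Pln*), where 1.46% of all tested genes were, and 12 higher, where 81.4% were.

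Beside the members, 124 other channel, transporter, connexin and pump genes were followed, of which 78 could be tested. In the comparison of WT MI with WT sham, 22 of these were called higher and 13 lower, where 27.7% and 9.39% of all tested genes were, with a median log2 fold change of 0.17 beside 0.19 over all tested genes. Of the 22, 5 reached an FPKM of 1 in at most 1 sham library, and of the 13, 2 reached it in at most 1 infarct library, so that the filter kept them through the side where they were high. *Kcne4*, *Kcnab2* (FPKM of 1.14 and 0.92 in the sham libraries, 5.88 and 7.24 in those of WT MI) and *Orai2* were among the former and *Kcnv2* (3.26 and 3.08, then 0.19 and 0.94) among the latter, and their values are given as a description. Of the others, a large rise was that of *Fxyd5*, and large falls those of *Camk2b* and *Kcna7* (−0.97, from 5.75 and 5.53 to 2.53 and 2.24). *Kcnab2* and *Kcnv2* encode a cytoplasmic subunit and a silent subunit of voltage-gated K+ channels. Of 15 other release-unit genes, 6 were called higher, among them the chaperone *Calr* (1.04) and the calmodulin genes *Calm2* and *Calm3* (0.76 and 0.53), and 3 lower, *Jph1*, *Tmem38a* and *S100a1* (between −0.67 and −0.66). The call of *Jph1* held in 10 of 17 alternatives. Of 14 other uptake and extrusion genes, 4 were called higher (*Slc8b1*, *Stim2*, *Orai1* and *Orai2*) and none lower. Among 8 channels known from leukocytes, 5 of 6 tested were called higher, of which 4 reached an FPKM of 1 in at most 1 sham library. From WT sham to Card9 KO MI, 29 of the 78 were called higher and 20 lower, where 34.8% and 14.3% of all tested genes were. Among them were *Fxyd5* (2.97) and *Cacnb3* (1.63) in the first direction and *Kcna7* (−1.38), *Camk2b* (−1.27) and *Camk2a* (−1.13) in the second, and 6 of the 29 and 1 of the 20 had likewise passed the filter through the side where they were high. *Cacnb3* is a beta subunit of voltage-gated Ca2+ channels and *Camk2a* another isoform of the kinase. The release-unit, uptake, leukocyte and *Gja4* examples given here and above were chosen after their values were seen.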

How the data were processed

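RNA of 6 heart tissue samples was sequenced. Per the labels and the study's methods, the authors isolated RNA (TRIzol), selected mRNA, read it on a HiSeq instrument, aligned the reads to mm9 with BWA and Bowtie2, and deposited FPKM values with 2 decimals for genes above 0, by NCBI gene number. The annotation and the use of strand are not given in the sources used here, so overlapping and antisense genes (such as *Cacna1c* and *Dcp1b*, *Asph* and *Clvs1*) and paralogs can share reads. FPKM depends on the make-up of the whole library. Low values matched whole fragments, within a tolerance of 0.1, in 66.7% to 69.3% of cases, so counts were not rebuilt.

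Unlisted genes were set to 0. All comparisons used limma 3.58.1 in R 4.3.3 (lmFit, eBayes with trend) on log2(FPKM + 1), with 13120 genes at an FPKM of 1 or more in 2 or more libraries, 3 groups in one fit, Benjamini-Hochberg adjustment over all of them and a threshold of 0.05. Fold changes on this scale understate those of low genes. The cardiomyocyte scaling was an offset on this scale and moves low genes as far as abundant ones. The fit was tested on simulated data. Tables and plots used Python 3.11.15, numpy 2.4.6, pandas 2.3.3 and matplotlib 3.10.9. Symbols and promoters came from RefSeq tables of GRCm38.p6, and positions from GENCODE on mm9.

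The members and lists were chosen with earlier results of these data known. Named in full were members called in WT MI against WT sham or in Card9 KO MI against WT MI, the most abundant member of each role, up to 4 called related genes per direction and comparison, and close relatives; some related genes that this rule names are not reported here. The fit was repeated with 0.1 or 5 added to the FPKM, no filter or a minimum mean FPKM of 5, upper-quartile or quantile normalization, libraries scaled without their 100 most abundant genes or to 12 cardiomyocyte structural genes, only the groups compared, no variance trend, the replicate number as a block, and each library left out.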

Additional observations from a re-analysis of the deposited data

How the results depend on the processing

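The median log2 fold change of all genes between WT MI and WT sham was 0.19 as deposited, 0.05 with upper-quartile scaling, −0.09 with quantile normalization and 0.80 with scaling to cardiomyocyte structural genes. Under this last scaling, 12 members were called between WT MI and WT sham (3 lower, 9 higher), where 1.08% of all tested genes were lower and 73.1% higher. In Card9 KO MI against WT sham 7 were lower and 12 higher, where 1.46% and 81.4% of all tested genes were. *Fkbp1b*, which passed the minimum through infarct libraries alone, is counted as higher in both as a description under this scaling. Among members called on either scale, signs reversed under it for *Kcnh2* (0.59), *Kcne1* (0.60), *Cacna2d1* (0.11), *Ryr2* (0.12), *Casq2* (0.19), *Trdn* (0.17), *Jph2* (0.17), *Pln* (0.077) and *Camk2d* (0.35) in WT MI against WT sham, and in Card9 KO MI against WT sham for *Kcnj2* (0.16), *Kcnj5* (0.078), *Kcna5* (0.72), *Kcnq1* (0.66), *Hcn4* (0.58), *Cacna1c* (0.059), *Cacnb2* (0.14), *Cacna2d1* (0.46), *Casq2* (0.16), *Trdn* (0.24), *Gja1* (0.70) and *Camk2d* (0.54). Members called on neither scale changed sign too. These were *Kcnj5* (0.46), *Kcnk3* (0.28), *Kcna5* (0.42), *Cacna1c* (0.21) and *Cacnb2* (0.28) in the first comparison. In the second they were *Hcn2* (0.15) and *Kcnh2* (0.43). Between the infarct groups they were *Kcnd2* (0.016), *Trdn* (0.072), *Asph* (0.0044), *Atp2a2* (0.12), *Gja1* (0.043) and *Camk2d* (0.20), all negative as deposited. Quantile normalization left 1 member higher in WT MI against WT sham and 2 in Card9 KO MI against WT sham, and a mean FPKM of at least 5 also left 2 in the latter. Between the infarct groups limma called 0 members without the filter (15 at an unadjusted p under 0.05), and a mean FPKM of at least 5 gave 1 higher and 2 lower. The number called lower there was 2 with an added FPKM of 5, and 0 with an added FPKM of 0.1, with upper-quartile scaling, with only the groups compared, without the variance trend and with the replicate number as a block, where 11 to 15 members were lower at an unadjusted p under 0.05. With single libraries left out, 11 to 23 members were called in WT MI against WT sham (10 to 19 lower, 1 to 4 higher), 0 to 2 between the infarct groups (0 to 2 higher, 0 lower), and 19 to 24 in Card9 KO MI against WT sham (17 to 21 lower, 2 to 4 higher, the 2 without WT sham replicate 2). Leaving out 1 library of a group assumes that the remaining one varies like the other groups. In each of these fits fewer of all tested genes were called too. Same-numbered libraries did not deviate together over all genes (r from −0.0083 to 0.020), which cannot exclude a pairing that affects some of them. With the replicate block, 21, 2 and 22 members were called in the 3 comparisons, against 22, 3 and 24 without it. The cause of each change was not tested.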
